A study of Rattus norvegicus with 12 samples.

Results

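Genes of the cell cycle and of proliferation were followed in endothelial cells (ECs) of the rat ductus arteriosus (DA) and aorta around birth. The list held 48 genes, grouped by their role in the cell cycle, and was drawn up when earlier results of these data were known. A probe set with a single gene symbol was found for 43 of the 48, and the other 5 (Mcm3, Mcm4, Cenpe, Cenpf and Mki67) were not analysed here. Of these 43 genes, 40 had 1 such probe set and 3 had 2, of which the brighter was used. All 43 lay above the limit for testing, the mean of the lys spike over the 12 arrays (4.44 on the log2 scale), and did so on every array. The spike itself ran from 3.41 to 6.17 over the arrays. The whole table held 26468 probe sets, and 18690 of them were tested.

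ECs of the DA and the aorta came from Wistar rats delivered by cesarean section at day 21 of gestation, either allowed to breathe for 30 minutes (N group) or taken before breathing (F group). The 4 groups were DA ECs in N, aortic ECs in N, DA ECs in F and aortic ECs in F, with 3 arrays each, and no group carried an allele or a drug. In every group the vessels were digested with collagenase and dispase and the cells were sorted as CD31+ and CD45- cells, so that all values are those of cells that had passed through digestion and sorting. Each array held RNA pooled over many litters, so that the p-values below measure the spread between pools. The litter counts in the paper leave none for a single vessel, so DA and aortic pools of a stage likely share litters. The main fit does not pair them, and whether equal replicate numbers mark shared litters is not given. In these pools, fewer cycling cells and less RNA of a gene per cell cannot be told apart.

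A cell enters the cycle when cyclin D with Cdk4 or Cdk6, and then cyclin E with Cdk2, inactivate the retinoblastoma protein and free E2F factors, which switch on the genes of DNA replication. Cyclin A and cyclin B with Cdk1 then drive mitosis, Plk1 and the Aurora kinases build the spindle, and Cdc20 turns on the anaphase-promoting complex once the spindle checkpoint is satisfied. Inhibitors of the Cip/Kip and INK4 families hold the cyclin-dependent kinases (CDKs) back, and in arterial endothelium Cdkn1b is known for the growth arrest that accompanies specification.

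Promoters of mitotic genes are known to share a pair of elements, a CCAAT box and the cell cycle genes homology region (CHR), whereas those of replication genes carry E2F sites. The promoters of 5 members whose values differed between the vessels are shown here, because 3 of them are mitotic genes and did not move in 1 direction. They are taken from RefSeq (GRCr8), 220 bases before to 30 after the annotated start, 5′ to 3′ on the gene's strand. Capitals mark CCAAT (or its reverse complement), the CHR letters TTTGAA and, in Cdkn1a, a p53 half-site.
Cdc20, chr5:137255770-137256019, minus strand: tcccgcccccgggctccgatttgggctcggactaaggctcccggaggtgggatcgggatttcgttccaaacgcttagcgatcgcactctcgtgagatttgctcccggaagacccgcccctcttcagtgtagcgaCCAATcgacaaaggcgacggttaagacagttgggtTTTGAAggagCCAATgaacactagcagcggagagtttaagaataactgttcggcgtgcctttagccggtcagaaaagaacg
Plk1, chr1:186147438-186147687, plus strand: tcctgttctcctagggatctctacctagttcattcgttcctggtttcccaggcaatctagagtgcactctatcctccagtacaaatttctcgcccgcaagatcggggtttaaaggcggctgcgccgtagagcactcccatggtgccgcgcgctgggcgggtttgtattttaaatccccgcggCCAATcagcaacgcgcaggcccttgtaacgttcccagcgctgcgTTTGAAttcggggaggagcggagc
Kif23, chr8:71320555-71320804, minus strand: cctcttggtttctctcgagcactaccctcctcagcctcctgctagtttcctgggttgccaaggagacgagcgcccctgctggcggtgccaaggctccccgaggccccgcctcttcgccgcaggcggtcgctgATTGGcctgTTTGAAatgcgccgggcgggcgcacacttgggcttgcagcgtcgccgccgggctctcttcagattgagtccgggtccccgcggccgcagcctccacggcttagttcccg
Cdkn1a, chr20:7150712-7150961, plus strand: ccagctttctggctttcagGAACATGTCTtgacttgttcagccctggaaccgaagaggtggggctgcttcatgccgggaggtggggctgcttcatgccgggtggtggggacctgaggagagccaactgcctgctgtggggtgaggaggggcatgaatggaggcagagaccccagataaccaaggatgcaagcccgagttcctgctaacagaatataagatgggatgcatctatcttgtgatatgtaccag
Ccnd3, chr9:20897846-20898095, minus strand: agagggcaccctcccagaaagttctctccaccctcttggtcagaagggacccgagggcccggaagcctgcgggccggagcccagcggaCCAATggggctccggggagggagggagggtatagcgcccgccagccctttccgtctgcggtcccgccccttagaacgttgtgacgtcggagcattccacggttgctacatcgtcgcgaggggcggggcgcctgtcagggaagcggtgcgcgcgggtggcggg

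Cdc20, Plk1 and Kif23 each held both elements, with the CHR starting at base 170, 227 and 142 of the printed run. Ccnd3 held a CCAAT box alone, and Cdkn1a held neither of them but the half-site at base 20. RefSeq promoters were matched for 32 of the 43 members. Both elements were found, on either strand, in 10 of the 18 promoters of mitotic members (55.6%) and in 5.5% of all 33469 promoters of the same length. The window had been lengthened after a shorter one missed the CHR of Plk1, which is counted here. The CHR letters alone were in 11 of the 18 (61.1%), against 15.2% of all promoters. E2F letters (TTTCCCGC, TTTGGCGC or TTTCGCGC) were in 5 of the 7 promoters of replication and nucleotide members (71.4%) and in 1 of the 18 mitotic ones, against 1.5% of all promoters. A p53 half-site was in 3 of the 32 promoters and in 6.5% of all. Such matches describe letters and not bound sites.

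Between the vessels, the CDK inhibitors Cdkn1c and Cdkn1a and the D cyclins Ccnd3 and Ccnd2 were lower in ECs of the DA, while most mitotic and replication genes had log2 fold changes slightly above 0. Over both stages limma, fitted to the 4 group means and adjusted over all probe sets by Benjamini-Hochberg, called 5 members lower in the DA (Cdkn1c, Cdkn1a, Ccnd3, Ccnd2 and Kif23) and 2 higher (Cdc20 and Plk1) at an adjusted p under 0.05. Among all probe sets, 4.93% were called lower and 3.19% higher. Within N, 2 members were lower (Cdkn1a and Cdkn1c) and 0 were higher, against 1.87% and 1.26% of all probe sets. At an unadjusted p under 0.05 these counts in N were 6 and 7 (6.15% and 4.48% of all probe sets), and the methods' t-test called 0 and 0 after Benjamini-Hochberg adjustment, where it called 24 and 20 of all 18690 probe sets. Within F, 3 were lower (Cdkn1a, Cdkn1c and Ccnd3) and 1 was higher (Cdc20), against 2.28% and 1.49%.

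Above 0 lay the log2 fold changes (DA over aorta) of 35 of the 43 members in N, 32 in F and 34 over both stages, where 49.4%, 49.5% and 49.9% of all probe sets did. The median of the members was 0.16 in N, 0.16 in F and 0.15 over both stages, against -0.0028, -0.0030 and -0.00041 for all probe sets. The split of the 7 calls over both stages depended on scaling. Centring each array on its median gave 5 members lower and 5 higher, where 855 and 657 of all 18690 probe sets were called. Quantile normalization gave 5 lower and 9 higher, where 913 and 755 of all probe sets were called.

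**Figure D1:**
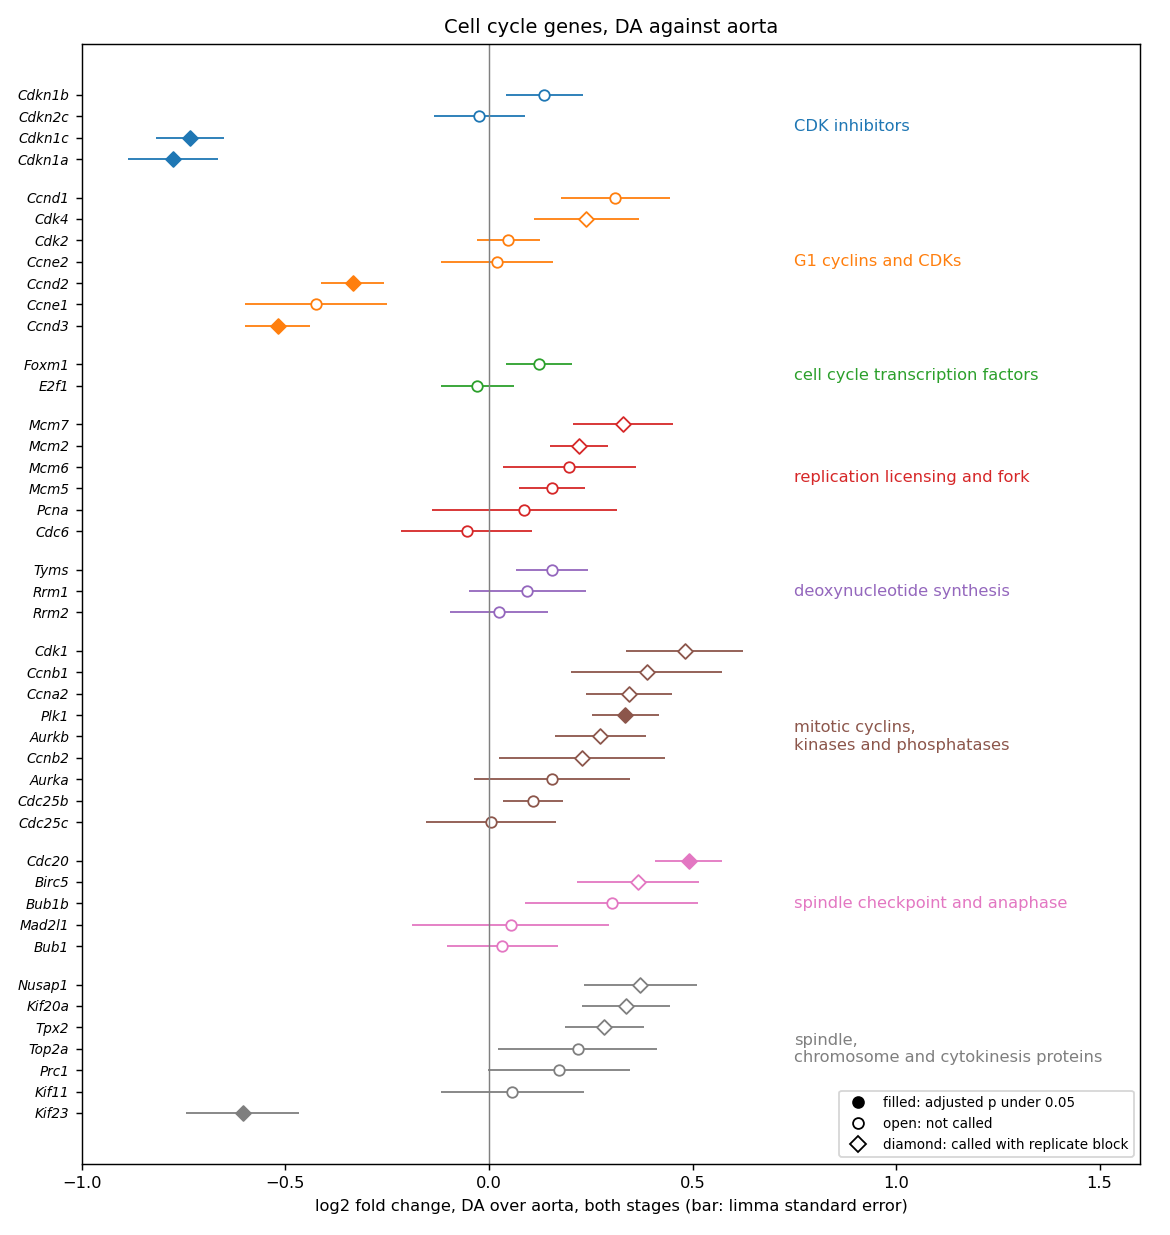
Log2 fold change of each of the 43 members, DA over aorta across both stages (6 DA and 6 aorta arrays), grouped by role, with limma's standard error as the bar. Filled points have an adjusted p under 0.05 and diamonds are called with the replicate number as a block. Cdkn1a and Cdkn1c lie farthest to the left at -0.78 and -0.73, and Cdc20 farthest to the right at 0.49.

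Cdkn1c, a Cip/Kip inhibitor of CDKs from an imprinted locus, had the smallest adjusted p among the members. Its log2 signals were 7.0, 6.93 and 6.98 on the DA arrays in N, against 7.64, 7.58 and 7.80 on the aortic arrays. In F they were 7.10, 6.95 and 6.99 in the DA, against 7.71, 7.66 and 7.97 in the aorta. Every DA array lay below every aortic array, each by at least 0.61 from the aortic array of its own number and stage. The log2 fold change was -0.70 in N (standard error 0.12, adjusted p = 0.00502), -0.76 in F (standard error 0.12, adjusted p = 0.0025) and -0.73 over both stages (standard error 0.08, adjusted p = 0.000107; limma), a signal 1.66-fold lower in the DA. These calls were made without any 1 of the 12 arrays.

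Cdkn1a, the Cip/Kip inhibitor induced by p53, was lower by a similar amount. In N its log2 signals were 7.99, 8.06 and 7.88 in the DA, against 8.84, 8.59 and 8.75 in the aorta. In F they were 8.0, 7.34 and 7.48 in the DA, against 8.37, 8.45 and 8.41 in the aorta. DA and aorta did not overlap at either stage, although DA F replicate 1 stood well above the other DA arrays in F. Limma gave -0.75 in N (standard error 0.16, adjusted p = 0.02), -0.80 in F (standard error 0.16, adjusted p = 0.0108) and -0.78 over both stages (standard error 0.11, adjusted p = 0.000635). The call in N was lost without aorta N replicate 1 or 3 (adjusted p = 0.0962 and 0.0674) or DA N replicate 2 or 3 (0.0631 and 0.0733), and that in F without aorta F replicate 2 (0.0525) or DA F replicate 2 or 3 (0.0566 and 0.057), while the call over both stages was made without any 1 array.

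The other inhibitors on the list were not called. Cdkn1b, the Cip/Kip inhibitor that restrains Cdk2, had log2 signals of 9.28, 9.07 and 9.01 in the DA and 9.06, 8.85 and 8.97 in the aorta in N. In F they were 8.91, 8.83 and 8.87 in the DA and 8.99, 8.76 and 8.54 in the aorta. The vessels overlapped at both stages, and the log2 fold change over both was 0.14 (standard error 0.09, adjusted p = 0.547; limma). Cdkn2c, an INK4 inhibitor of Cdk4 and Cdk6, had -0.02 over both stages.

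Ccnd3, a D cyclin that partners Cdk4 and Cdk6, was lower in the DA. In N its log2 signals were 9.94, 10.11 and 9.92 in the DA, against 10.36, 10.46 and 10.50 in the aorta, and in F they were 9.81, 9.97 and 9.94, against 10.44, 10.63 and 10.42. No DA array reached the lowest aortic array. Limma gave -0.45 in N (standard error 0.11, adjusted p = 0.0561, and 0.0079 with the replicate number as a block), -0.59 in F (standard error 0.11, adjusted p = 0.00969) and -0.52 over both stages (standard error 0.08, adjusted p = 0.00114). Without aorta F replicate 2 the call in F was lost (adjusted p = 0.0582).

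Ccnd2, the second D cyclin on the list, also lay lower in the DA. Its log2 signals in N were 10.56, 10.46 and 10.44 in the DA, against 10.95, 10.82 and 10.85 in the aorta, and in F 10.59, 10.43 and 10.44, against 10.90, 10.74 and 10.68. The groups stood apart on all arrays, by less than for Ccnd3. Over both stages the log2 fold change was -0.33 (standard error 0.08, adjusted p = 0.0169; limma), a call lost without aorta N replicate 1 (0.0514) or DA N replicate 2 (0.0519). In N it was -0.38 (adjusted p = 0.103, and 0.0134 with the block) and in F -0.29 (0.241, and 0.0448 with the block).

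Ccnd1, the D cyclin that follows growth factor signalling, had the opposite sign. Its log2 signals in F were 7.58, 7.57 and 8.23 in the DA and 7.20, 7.47 and 7.38 in the aorta, which do not overlap, and in N 7.71, 7.88 and 7.40 in the DA and 7.28, 7.58 and 7.60 in the aorta, which do. The log2 fold change over both stages was 0.31 (standard error 0.13, adjusted p = 0.238; limma). Ccne1, a cyclin of Cdk2 at the entry to S phase, had signals of 5.59, 5.41 and 5.07 in the DA and 6.32, 5.93 and 5.61 in the aorta in N, and of 5.01, 5.57 and 5.67 in the DA and 6.11, 5.55 and 5.35 in the aorta in F. The vessels overlapped in F, and the value was -0.60 in N (adjusted p = 0.367) and -0.25 in F (0.802). On DA N replicate 1 and DA F replicate 1, Ccne1 lay below the lys spike of the same array (5.78 and 6.17). Cdk4, Cdk2 and Ccne2 had 0.24, 0.05 and 0.02 over both stages, and the transcription factors Foxm1, which drives mitotic genes, and E2f1, which drives replication genes, had 0.12 and -0.03.

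**Figure D2:**
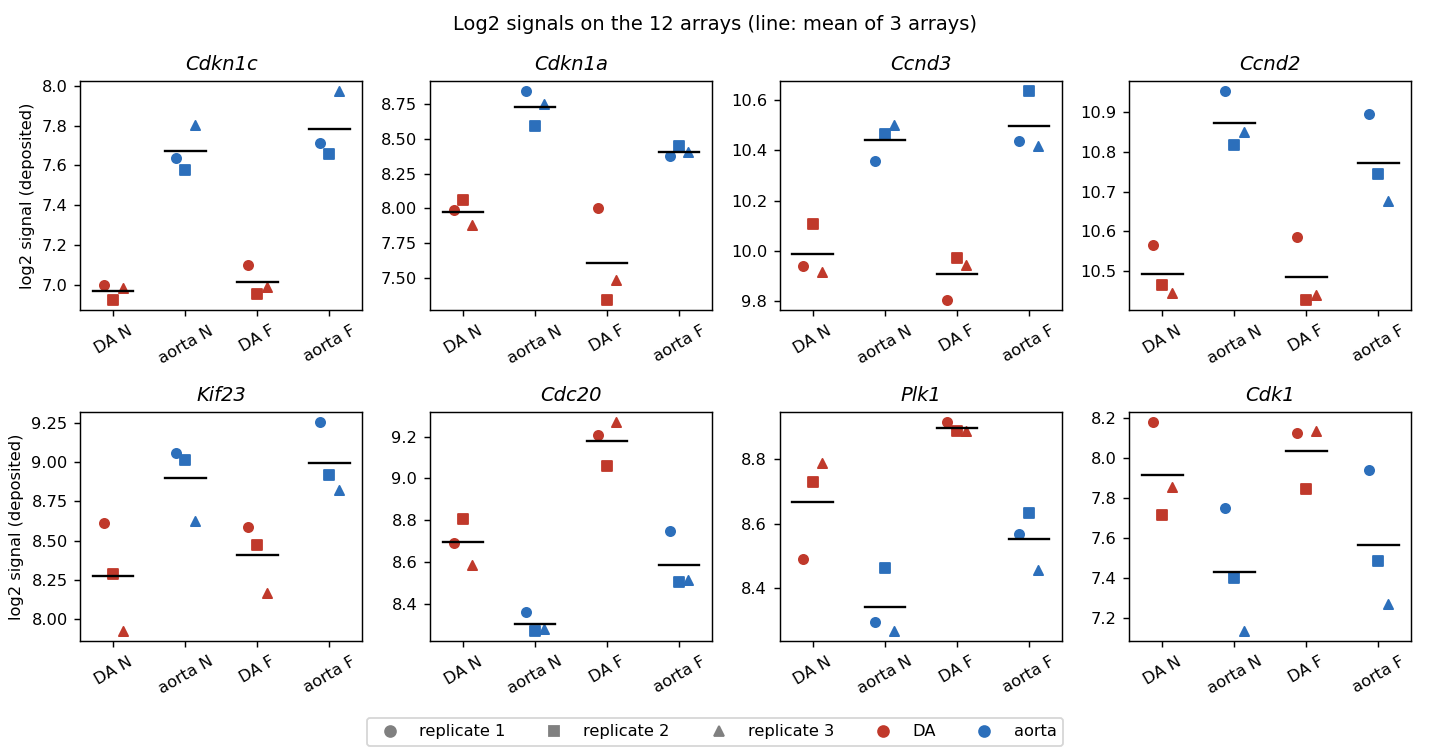
Log2 signals as deposited of 8 members on the 12 arrays, DA in red and aorta in blue, with the replicate number as the marker shape and the mean of 3 arrays as a line. The 7 genes called over both stages are shown with Cdk1, added after its values were seen. The DA arrays of Cdkn1c, Cdkn1a, Ccnd3, Ccnd2 and Kif23 sit below every aortic array, and those of Cdc20 and Plk1 sit above the aortic arrays of the same stage.

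Cdc20, the activator of the anaphase-promoting complex, was the mitotic gene with the largest log2 fold change in favour of the DA in F and over both stages, whereas in N Cdk1, Birc5, Kif20a, Ccnb1 and, narrowly, Nusap1 had larger values, up to 0.49 for Cdk1. In N its log2 signals were 8.69, 8.80 and 8.58 in the DA, against 8.36, 8.27 and 8.28 in the aorta, and in F 9.21, 9.06 and 9.27, against 8.75, 8.50 and 8.51. Within each stage the vessels did not overlap, but DA arrays in N reached into the range of the aortic arrays in F. Limma gave 0.39 in N (standard error 0.12, adjusted p = 0.125, and 0.0381 with the block), 0.59 in F (standard error 0.12, adjusted p = 0.011) and 0.49 over both stages (standard error 0.08, adjusted p = 0.00214), a 1.41-fold higher signal in the DA. The call in F was lost without aorta F replicate 2 or 3 (0.0617 and 0.0568) or DA F replicate 3 (0.0568), and with the groups in F fitted alone (0.0565). The call over both stages was made without any 1 array but lost by the methods' t-test once adjusted by Benjamini-Hochberg (0.0516). That t-test pooled the N and F arrays of each vessel without a stage term, whereas the paper compared the vessels at each stage.

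Plk1, the kinase of centrosome maturation and mitotic entry, was called over both stages. Its log2 signals were 8.49, 8.73 and 8.79 in the DA and 8.30, 8.46 and 8.27 in the aorta in N, and 8.91, 8.89 and 8.89 in the DA and 8.57, 8.63 and 8.46 in the aorta in F. The DA arrays in F lay within 0.03 of each other and above all aortic arrays. Its log2 fold change was 0.33 over both stages (standard error 0.08, adjusted p = 0.0238), 0.33 in N (adjusted p = 0.237) and 0.34 in F (0.167, and 0.049 with the block; limma). That call over both stages was lost without any 1 of 8 arrays, namely aorta F replicate 3, DA F replicates 1, 2 and 3, aorta N replicates 1 and 3 and DA N replicates 2 and 3 (0.0507 to 0.0735).

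Kif23, a kinesin of the central spindle that is needed for cytokinesis, went against the rest of the mitotic genes over both stages. In N its log2 signals were 8.61, 8.29 and 7.93 in the DA, against 9.06, 9.02 and 8.62 in the aorta, and in F 8.59, 8.47 and 8.17, against 9.25, 8.92 and 8.82. All 6 DA arrays lay below all 6 aortic arrays, and within every group replicate 1 was highest and replicate 3 lowest. Limma's log2 fold change was -0.60 over both stages (standard error 0.14, adjusted p = 0.0163), -0.62 in N (0.153, and 0.0018 with the block) and -0.59 in F (0.161, and 0.00237 with the block). Of the 21 mitotic members it was the only one with a log2 fold change below 0 over both stages and in N, whereas in F 17 lay above 0. Its promoter carries the same pair of elements as those of Cdc20 and Plk1 printed above.

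Among the 9 mitotic cyclins, kinases and phosphatases, all 9 log2 fold changes over both stages were above 0, with a median of 0.27 and a range of 0.0054 to 0.48. Cdk1, the kinase of mitotic entry, held the upper end. Its log2 signals were 8.18, 7.72 and 7.86 in the DA and 7.75, 7.40 and 7.13 in the aorta in N, and 8.13, 7.85 and 8.14 in the DA and 7.94, 7.49 and 7.27 in the aorta in F. Each DA array exceeded the aortic array of its own number, yet replicate 1 of the aorta lay among the DA arrays. The value of 0.48 (standard error 0.14) had an adjusted p of 0.0647, and of 0.00322 with the block (limma). Ccna2 and Ccnb1, the cyclins of S phase and mitosis, had 0.35 and 0.39.

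The 5 spindle checkpoint and anaphase members had a median of 0.30 over both stages, and Bub1 and Mad2l1, both checkpoint proteins, were at its low end with 0.03 and 0.05. The 7 spindle, chromosome and cytokinesis members had a median of 0.22, with Nusap1, a microtubule-binding spindle protein, at 0.37, and Kif20a, a kinesin of cytokinesis, at 0.34. Of the 6 members of replication licensing and the fork, 5 were above 0, Mcm7 and Mcm2, subunits of the replicative helicase, at 0.33 and 0.22, and Cdc6, which loads that helicase, at -0.05. Deoxynucleotide synthesis was represented by Tyms, Rrm1 and Rrm2 at 0.16, 0.09 and 0.02. No member of the replication and nucleotide groups was called in any of the 3 vessel contrasts (limma, 0 at an adjusted p under 0.05), and with the replicate block Mcm7 and Mcm2 were called over both stages (0.00514 and 0.028).

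Arrays of the same replicate number moved together. Replicate 1 was the highest array of its group in all 4 groups for 21 of the 43 members (48.8%), against 21% of all probe sets, and replicate 3 the lowest in all 4 for 17 members (39.5%), against 13.9%. Averaged over the 21 mitotic members, the log2 deviation from each gene's own mean reached 0.31 on DA N replicate 1 and 0.04 on aorta N replicate 1, against -0.16 and -0.45 on replicate 3 of the same groups. In F it reached 0.32 in both vessels on replicate 1, against 0.06 in the DA and -0.26 in the aorta on replicate 3. The lys spike moved with the same numbers, at 4.53 to 6.17 on the replicate 1 arrays, 4.16 to 4.78 on replicate 2 and 3.41 to 3.53 on replicate 3, and its part in the members' values was not tested.

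**Figure D3:**
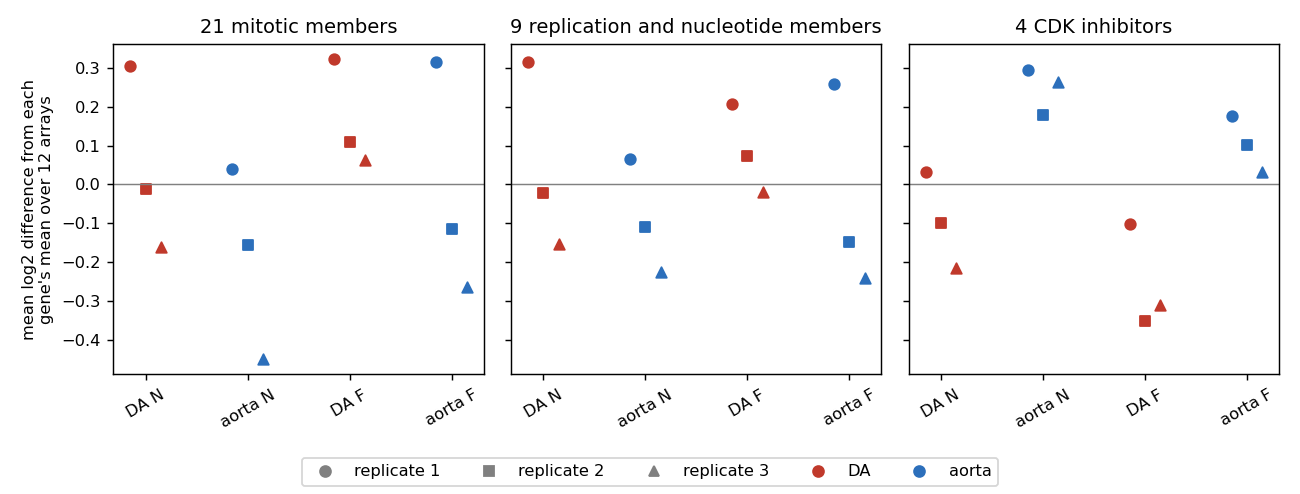
Mean log2 difference of each array from each gene's mean over the 12 arrays, for the 21 mitotic members, the 9 replication and nucleotide members and the 4 CDK inhibitors, with the marker shape as the replicate number. Replicate 1 is the highest array of every group in the mitotic and replication panels, and the aortic arrays sit above the DA arrays of the same stage for the inhibitors.

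With the replicate number as a block, more members passed the test. Over both stages 14 were higher in the DA and the same 5 lower, where 7.71% and 10.1% of all probe sets were called, among them Aurkb and Birc5, both of the chromosomal passenger complex, Ccna2, Ccnb1, Ccnb2, Cdk1, Cdk4, Kif20a, Nusap1 and Tpx2. In N 3 were higher (Cdc20, Cdk1 and Kif20a) and 5 lower, against 2.99% and 4.28% of all probe sets. In F 4 were higher (Cdc20, Cdk1, Mcm7 and Plk1) and 5 lower, against 3.94% and 6.5%. Within pairs of the same number and stage, the DA lay above the aorta in 6 of 6 for 15 members, against 10% of all probe sets, and below it in 6 of 6 for 5 members, against 12.8%.

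Without pairing, DA and aorta did not overlap for 8 members in favour of the DA in N (6.98% of all probe sets) and 8 in F (7.73%), and for 7 in favour of the aorta in N (8.3%) and 5 in F (10.9%). Cdc20, Plk1, Mcm2 and Tpx2, an activator of Aurora A on the spindle, stood apart at both stages in favour of the DA (3.73%). The same 5 genes called lower stood apart at both stages in the other direction (5.21%).

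Among markers of other cells, the smooth muscle means stood apart between the vessels at both stages. The mean log2 signal of 9 smooth muscle markers was 7.66 to 7.95 on the DA arrays and 7.46 to 7.48 on the aortic arrays in N, and 7.56 to 7.71 and 7.41 to 7.46 in F, and 3 of the 9 were called higher and 1 lower in the DA over both stages. The mean of 13 endothelial markers was 10.02 to 10.11 in the DA and 10.20 to 10.25 in the aorta in N, and 9.94 to 10.04 and 10.03 to 10.30 in F, with 2 called lower over both stages. Pecam1, which encodes CD31, was at 11.90 to 12.28 on all arrays, and Ptprc, which encodes CD45, at 2.82 to 4.10, below the limit for testing, as were Lyz2, Cd3e, Itgam and Laptm5 of the 9 leukocyte markers by their means. The other 4 leukocyte markers lay above the limit, and 0 of them were called over both stages. Cd68 was at 7.57 to 8.48, and Csf1r, Cd74 and Cd52 had means of 4.78, 4.59 and 4.45. The 9 fibroblast markers averaged 8.36 to 8.52 in the DA and 8.30 to 8.35 in the aorta in N, and 8.26 to 8.47 and 8.25 to 8.39 in F, where they overlapped. Over both stages 2 fibroblast markers were called higher and 2 lower in the DA, and of 5 mesothelial markers 1 was called higher and 0 lower. What part these cells have in the values of the cell cycle genes was not tested.

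After birth, no member passed the test. Limma called 0 of 43 between N and F in the DA, where 0.00535% of all probe sets were called higher and 0% lower in N, and 0 of 43 in the aorta, where 0% were. At an unadjusted p under 0.05 it gave 2 members in the DA (Cdc20 lower and Cdkn1a higher in N, against 0.792% and 1.21% of all probe sets) and 1 in the aorta (Cdc20 lower, 0.289%). The methods' t-test with the same adjustment called 0 members as well. With the replicate block 0 were called, where 0.0482% of all probe sets were higher and 0.00535% lower in the DA and 0.0161% were higher in the aorta. Log2 fold changes (N over F) lay above 0 for 11 members in the DA and 12 in the aorta, against 55.4% and 50.3% of all probe sets, and the medians were -0.08 and -0.10. The sign of these medians rested on single arrays, since the DA median was 0.03 without DA N replicate 3, and the aortic median 0.05 without aorta F replicate 1 and 0.02 without aorta N replicate 3. Of the 21 mitotic members, 2 lay above 0 in the DA and 0 in the aorta.

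The paper lists Cdc20 as changed between F and N in the DA, by a t-test p-value with no adjustment stated. Here Cdc20 had the largest value between N and F in the DA (limma, unadjusted p = 0.00128). In the signals given above, all its N arrays lay below all F arrays in each vessel. The log2 fold change was -0.49 in the DA (standard error 0.12, adjusted p = 0.896) and -0.28 in the aorta (standard error 0.12, adjusted p = 1; limma), and the adjusted p in the DA ran from 0.201 to 1 over the alternatives. The change in the DA minus that in the aorta was -0.20 (standard error 0.17, adjusted p = 1).

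No inhibitor passed the test between N and F, and their values differed in sign. The log2 signal of Cdkn1a differed by 0.37 between N and F in the DA (standard error 0.16, adjusted p = 1) and by 0.32 for aortic arrays (standard error 0.16, adjusted p = 1; limma), with N above F, and its N arrays overlapped the F arrays in the DA, through DA F replicate 1, but not in the aorta. Cdkn1b had 0.25 in the DA and 0.20 in the aorta (adjusted p = 1 for each; limma), and N exceeded F in 6 of 6 pairs of the same number, which 2.77% of all probe sets did. In the opposite direction, N was below F in 6 of 6 pairs for 7 members, against 1.55% of all probe sets. These were Cdc20, Plk1, Tpx2, Kif20a, Mcm2, the phosphatase Cdc25b, which activates Cdk1, and the inhibitor Cdkn1c, at -0.05 (DA) and -0.11 (aorta).

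**Figure D4:**
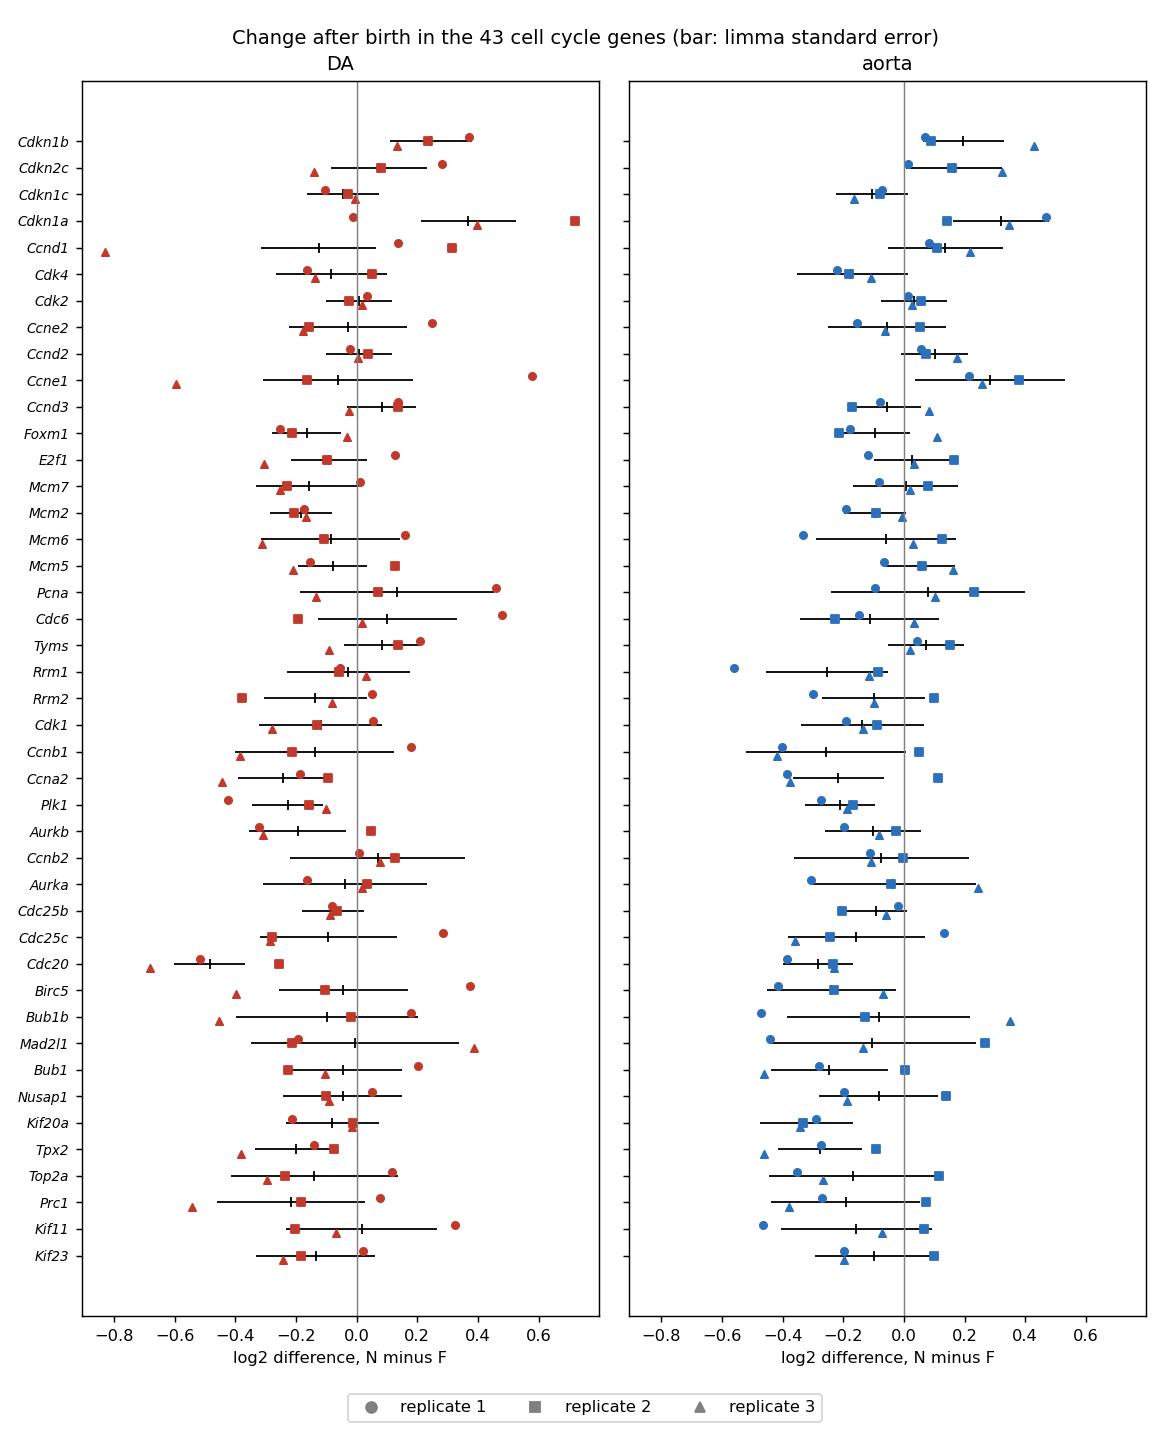
Log2 difference, N minus F, of the 43 members in the DA (left) and the aorta (right), with 1 point per pair of arrays of the same replicate number and limma's estimate and standard error as the black tick and bar. Cdc20 lies left of 0 in all 6 pairs and Cdkn1b right of 0 in all 6, and no member passed limma's test.

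Without pairing, 5 members did not overlap between N and F in the DA in favour of F (Ccna2, Cdc20, Mcm2, Plk1 and Tpx2; 2.04% of all probe sets) and 1 in favour of N (Cdkn1b; 2.99%). In the aorta these counts were 4 (Cdc20, Cdc25b, Mcm2 and Tpx2; 1.46%) and 1 (Cdkn1a; 2.93%). Kif20a, whose log2 signals were 7.57, 7.20 and 7.16 in N and 7.86, 7.53 and 7.51 in F in the aorta, had -0.32 there and -0.08 in the DA. With signals of 7.86, 7.76 and 7.68 in N and 8.07, 7.78 and 7.70 in F, the DA arrays overlapped widely.

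No difference between the vessels in the change after birth passed the test. Limma called 0 members and 0% of all probe sets, and 0 members had an unadjusted p under 0.05, which 0.931% of all probe sets had. The values farthest from 0 were -0.35 for Ccne1 (standard error 0.35), -0.26 for Ccnd1 (standard error 0.27) and 0.24 for Kif20a (standard error 0.22), each with an adjusted p of 1. The median over the members was 0.02, the same as that of all probe sets, and its sign turned in 8 of 20 alternatives (-0.15 to 0.11). Erythroid markers, a sign of blood in the sort, averaged 5.20 to 5.33 on the DA arrays in N and 5.52 to 5.97 in F, against 5.43 to 5.63 and 5.34 to 5.70 in the aorta, and their part in the members' change in the DA was not tested. The 5 lymphatic endothelial markers (Prox1, Lyve1, Pdpn, Flt4 and Ccl21) averaged 7.30 to 7.74 on the DA arrays in N and 6.85 to 7.29 in F, against 7.07 to 7.81 and 6.83 to 7.94 in the aorta. Limma called 0 of the 5, but all 5 log2 fold changes (N over F) lay above 0 in both vessels, with medians of 0.55 (DA) and 0.21 (aorta), and all 5 differences between the vessels did too, with a median of 0.28. Their part in the members' values was not tested.

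A wider list of cell cycle genes, also chosen by role, was read in the same fit. Of its 131 genes, 95 had a probe set of a single symbol and 93 were tested. Over both stages 3 were called higher in the DA (Cdk6, Pttg1 and Cenpa) and 2 lower (Rb1 and Tob1), against 3.19% and 4.93% of all probe sets. The log2 fold changes of 77 of the 93 lay above 0, where 49.9% of all probe sets did, with a median of 0.15. All 11 kinetochore and checkpoint genes, 17 of 18 genes of the spindle and cytokinesis and 23 of 26 replication genes lay above 0, whereas 3 of 10 genes of a group on the control of G1 and quiescence did. These 3 were Cdk6, which promotes G1 and is no brake, Cdkn2b, an INK4 inhibitor, at 0.10 and Ccng1, a p53 target, at 0.13.

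Cdk6, the partner of D cyclins beside Cdk4, had the largest value of this list. Its log2 signals were 8.58, 8.36 and 8.21 in the DA and 7.64, 7.67 and 7.56 in the aorta in N, and 8.29, 8.39 and 8.31 in the DA and 7.53, 7.72 and 7.24 in the aorta in F. Every DA array lay above every aortic array. The log2 fold change was 0.76 in N (standard error 0.14, adjusted p = 0.00935), 0.83 in F (standard error 0.14, adjusted p = 0.00397) and 0.80 over both stages (standard error 0.10, adjusted p = 0.000216; limma), and the calls were made without any 1 array.

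Rb1, the retinoblastoma protein that D cyclin complexes inactivate, was lower in the DA. Its log2 signals were 7.95, 7.46 and 7.33 in the DA and 8.28, 8.15 and 7.85 in the aorta in N, and 7.70, 7.49 and 7.52 in the DA and 8.29, 8.09 and 8.11 in the aorta in F. The vessels overlapped in N through DA replicate 1 and aorta replicate 3, and each pair of the same number ran the same way. The value over both stages was -0.55 (standard error 0.12, adjusted p = 0.011; limma), and was called without any 1 array. Within a stage it was not called, at -0.51 in N (adjusted p = 0.175, and 0.0116 with the block) and -0.59 in F (0.0856, and 0.0042 with the block).

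Tob1, an antiproliferative protein of the BTG family, had signals of 8.74, 8.93 and 8.59 in the DA and 9.47, 9.37 and 9.31 in the aorta in F, with no overlap, and of 9.49, 9.12 and 9.04 in the DA and 9.39, 9.52 and 9.31 in the aorta in N, with overlap. Its difference from the aorta was -0.63 in F (standard error 0.14, adjusted p = 0.0259) and -0.41 over both stages (standard error 0.10, adjusted p = 0.0241), against -0.19 in N (0.851; limma). Its log2 fold change of N over F was 0.47 for the DA and 0.02 for the aorta, and their difference of 0.44 (standard error 0.20) had an adjusted p of 1. The call in F was lost without DA F replicate 1 or 3 or any 1 aorta F array (0.062 to 0.121), and that over both stages without any 1 of 8 arrays (0.0507 to 0.0745).

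Pttg1, the securin that keeps separase inactive until Cdc20 acts, had log2 signals of 9.32, 9.23 and 9.39 in the DA and 8.96, 8.96 and 8.78 in the aorta in N, and of 9.35, 9.01 and 9.58 in the DA and 8.90, 8.89 and 8.95 in the aorta in F. At both stages the vessels stood apart. Over both stages the log2 fold change was 0.41 (standard error 0.10, adjusted p = 0.0228; limma), a call lost without DA F replicate 1 or 3, DA N replicate 3, aorta F replicate 2 or aorta N replicate 3 (0.0511 to 0.0586). Cenpa, the centromeric histone, had 0.44 (standard error 0.11, adjusted p = 0.0293), a call lost without any 1 of 8 arrays (0.0554 to 0.0758). With the replicate block 18 of the 93 were called higher and 5 lower over both stages, against 7.71% and 10.1% of all probe sets.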

How the data were processed

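Sorted EC RNA was read on 12 Rat Gene 1.0 ST arrays (3 for each group). The authors deposited log2 signals, 1 per probe set and array, already summarised and normalized by a method not given in the sources used here. Array medians were 5.63 to 5.76, and no array was identical to another (highest correlation 0.996). The number of arrays limits the precision.

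Symbols came from the platform's annotation, updated through RefSeq (15307 probe sets with 1 symbol, 323 with several and 10838 with none). The 18690 probe sets with a mean at or above that of the lys spike (4.44) were fitted in limma 3.58.1 (R 4.3.3) with 1 mean per group, and p-values were adjusted by Benjamini-Hochberg. The members and lists were chosen with earlier results of these data known. Values on every array are given for called members, the 3 largest log2 fold changes in each contrast and Cdc20, which the paper lists, and of wider lists for at most 3 called genes per contrast and direction. Cdk1 was added after its values were seen.

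Deviations from group means correlated at 0.539 to 0.820 between arrays numbered 1, 0.102 to 0.301 between arrays numbered 2 and 0.393 to 0.735 between arrays numbered 3, against -0.738 to 0.368 between different numbers. The titles give the numbers, but not what they mark. The replicate number was therefore fitted as a block as well. Further alternatives were the filter, normalization, array weights, the variance model, the groups fitted, the probe set used, the methods' t-test and leaving out each array.

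The fit was tested on simulated data of 18690 genes for the DA against the aorta in N, where 4 of 67 genes changed by 0.5 on the log2 scale were called, 49 of 67 changed by 1 and 64 of 66 changed by 2. The promoter window was lengthened after a shorter one had been seen to miss the CHR of Plk1.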

Additional observations from a re-analysis of the deposited data

How the results depend on the processing

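The members called between the vessels kept the sign of those log2 fold changes in the alternatives run. Members with values near 0 need not have, as Rrm2 turned over both stages without DA F replicate 2. The members' medians between the vessels kept their sign (0.10 to 0.21 over both stages). The medians between N and F did not, at -0.18 to 0.03 in the DA and -0.20 to 0.05 in the aorta with 1 array left out, and 0.04 in the aorta with array weights. That of the change in the DA minus that in the aorta was -0.03 with quantile normalization, -0.02 with centring on medians and -0.11 with array weights. Counts of called members moved most. In N, 0 members were called higher and 2 lower. The counts of higher members in N were 1 with quantile normalization, 3 with the replicate block and 4 with array weights, and those of lower members 5 with the block, 4 with trend and robust variance, 6 with array weights and 0 with the methods' t-test, both after Benjamini-Hochberg adjustment and unadjusted with at least 2-fold. In F, against 1 higher and 3 lower, the block gave 4 and 5, array weights 2 higher, a fit of the groups compared alone 0 higher, and the methods' t-test 0 and 0 in both forms. Over both stages, against 2 higher and 5 lower, quantile normalization gave 9 higher, centring on medians 5, the block 14 and array weights 12. The methods' t-test with at least 2-fold, run over both stages without a stage term, gave 0 and 0. Calls among all 18690 probe sets moved as well. In N, 236 were higher and 350 lower, with 251 higher by quantile normalization and 558 and 800 by the block. Array weights gave 915 and 1162 there, and trend and robust variance 402 lower. In F the block gave 737 and 1214 and array weights 441 higher, against 278 and 427. Over both stages 597 were higher, against 755 with quantile normalization, 657 with centring, 1441 with the block and 1240 with array weights. Causes were not tested.

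Leaving out 1 array at a time gave 1 to 2 lower members in N (1 without aorta N replicate 1 or 3 or DA N replicate 2 or 3), 0 to 1 higher in F (0 without aorta F replicate 2 or 3 or DA F replicate 3) and 1 to 3 lower in F (1 without aorta F replicate 2). Over both stages it gave 1 to 4 higher members (4 without aorta F replicate 1, and 1 without aorta F replicate 3, DA F replicates 1, 2 and 3, aorta N replicate 3 or DA N replicates 2 and 3). The replicate block changed no call of a named member beyond those given with the block above, and called 0 members between N and F. Differences of 0.5 on the log2 scale were mostly missed in the simulation of the DA against the aorta in N. It changed few genes and held no effect shared by replicate number, so its rate may not hold for these contrasts.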
